A study of Homo sapiens with 7 samples.

Results

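Isolated protein-coding promoters are starts of genes with no other gene close upstream or over the first stretch of the gene. They were chosen in the RefSeq annotation of GRCh38 as protein-coding genes of at least 5 kb with no gene of any biotype within 10 kb upstream of the transcription start site (TSS) and none overlapping the first 2 kb downstream of it. The rule used gene positions only, and no measured value. It found 5579 promoters among the 16633 protein-coding genes of at least 5 kb whose strand was known, or 33.5%. Each was read as a window from 1 kb upstream to 1 kb downstream of the TSS.

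Peaks of chromatin immunoprecipitation sequencing (ChIP-seq) were listed for precipitations with the antibody 6D7 against threonine 4 phosphorylation (pThr4) of RNA polymerase II in HEK293, an established human embryonic kidney line. Nuclear lysate of these cells was incubated in matched portions with SCP1-WT, called active SCP1 here, or with the catalytically inactive D96A mutant, which the labels call SCP1-Dead and which is called inactive SCP1 here. Each group held 3 biological replicates of unmodified, formaldehyde-fixed HEK293 cells, so the groups differed in the phosphatase added to lysate and not in the cells. The question put to the lists was where pThr4 became detectable once phosphate on the adjoining serine 5 had been removed.

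The largest subunit of RNA polymerase II carries a tail of repeated short peptides, the C-terminal domain, whose residues are phosphorylated and dephosphorylated as the enzyme moves along a gene. Serine 5 phosphorylation is best known from the start of genes, where capping enzymes are recruited, whereas pThr4 is best known from the region past the polyadenylation site, where transcripts are released. SCP1 is a phosphatase of the C-terminal domain that prefers phosphorylated serine 5. At a crowded start the end of a neighbouring gene can lie under the same peak, which is why starts without neighbours were read on their own.

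The RefSeq promoter sequences (GRCh38.p14, 250 bases before the TSS and the first 50 bases of the transcript) of 6 isolated starts are shown because a pThr4 peak lay over each of these starts in all 3 active libraries. DMAP1 lay at chr1:44213221-44213520 (plus strand), SNX14 at chr6:85593809-85594108 (minus strand) and TIGAR at chr12:4320963-4321262 (plus strand). CELF6 lay at chr15:72320108-72320407 (minus strand), MPHOSPH8 at chr13:19633409-19633708 (plus strand) and COX20 at chr1:244835056-244835355 (plus strand). Capitals mark matches, on either strand, to the GC box GGGCGG, the CCAAT box CCAAT, the TATA box TATAAA and the E-box CACGTG, and no overlap between motifs occurred in these sequences.
DMAP1: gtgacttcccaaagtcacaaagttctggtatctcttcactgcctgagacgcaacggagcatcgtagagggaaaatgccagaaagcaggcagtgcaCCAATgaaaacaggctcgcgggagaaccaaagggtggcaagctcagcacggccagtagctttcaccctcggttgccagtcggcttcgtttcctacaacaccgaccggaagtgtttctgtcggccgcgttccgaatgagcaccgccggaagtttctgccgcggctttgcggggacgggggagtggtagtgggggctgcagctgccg
SNX14: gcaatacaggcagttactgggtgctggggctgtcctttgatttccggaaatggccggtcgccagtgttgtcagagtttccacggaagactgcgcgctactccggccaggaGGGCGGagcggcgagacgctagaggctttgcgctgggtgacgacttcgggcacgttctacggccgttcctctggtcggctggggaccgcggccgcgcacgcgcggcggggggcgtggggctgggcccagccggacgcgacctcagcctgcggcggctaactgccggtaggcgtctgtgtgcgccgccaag
TIGAR: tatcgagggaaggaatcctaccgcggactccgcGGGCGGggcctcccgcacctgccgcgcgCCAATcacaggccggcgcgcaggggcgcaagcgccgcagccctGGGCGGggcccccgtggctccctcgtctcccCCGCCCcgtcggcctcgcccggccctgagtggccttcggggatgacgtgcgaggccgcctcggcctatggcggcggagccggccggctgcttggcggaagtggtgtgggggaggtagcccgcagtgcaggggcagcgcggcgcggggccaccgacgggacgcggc
CELF6: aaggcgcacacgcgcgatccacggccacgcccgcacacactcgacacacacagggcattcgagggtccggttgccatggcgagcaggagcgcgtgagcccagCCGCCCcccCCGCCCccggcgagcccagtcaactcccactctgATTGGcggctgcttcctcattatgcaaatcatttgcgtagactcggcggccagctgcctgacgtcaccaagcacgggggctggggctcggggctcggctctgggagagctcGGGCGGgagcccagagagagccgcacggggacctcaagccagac
MPHOSPH8: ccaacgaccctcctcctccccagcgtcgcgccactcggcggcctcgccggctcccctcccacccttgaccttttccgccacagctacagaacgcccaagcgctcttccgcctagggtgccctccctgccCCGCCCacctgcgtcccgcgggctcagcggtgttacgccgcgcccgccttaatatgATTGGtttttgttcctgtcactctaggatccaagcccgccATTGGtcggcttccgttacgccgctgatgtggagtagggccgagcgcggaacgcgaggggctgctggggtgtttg
COX20: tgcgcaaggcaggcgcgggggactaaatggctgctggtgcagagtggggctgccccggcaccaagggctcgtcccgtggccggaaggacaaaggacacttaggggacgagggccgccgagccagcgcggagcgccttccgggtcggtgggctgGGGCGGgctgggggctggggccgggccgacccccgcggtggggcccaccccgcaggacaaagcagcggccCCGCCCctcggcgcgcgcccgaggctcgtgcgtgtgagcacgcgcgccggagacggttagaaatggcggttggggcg

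The 6 sequences ranged from 58.7% to 78.0% in G and C, against a median of 58.7% over all 35116 RefSeq promoters of this length. Their observed to expected CpG ratio ran from 0.823 at CELF6 to 1.04 at SNX14, and the median of all promoters was 0.579. A GC box was present in 5 of the 6, with 3 copies at TIGAR and at CELF6, and in 45.0% of all promoters. The sequence of ZDHHC11B, not shown, had 78.3% G and C and 7 GC boxes. A CCAAT box was present in 4 of the 6 and in 34.6% of all promoters. Neither TATAAA, which 11.5% of all promoters held, nor CACGTG, which 7.26% held, was found in these 6 windows. A match to these letters is a description of the sequence and not a bound site.

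The libraries differed widely in the length of their lists, and this bears on each count below. Replicates 1, 2 and 3 had lists of 12625, 6680 and 36892 peaks after active SCP1, and of 2466, 1163 and 2699 after inactive SCP1. Active replicate 3 stood apart as the longest list, and the peak names of replicate 3 of both groups carried another run tag than those of replicates 1 and 2. Read depth is unknown, since the lists hold no counts, so counting intervals cannot be had and only the replicates show the error. Of 8 marker genes of HEK293 and kidney epithelium, 2 to 4 carried a peak in or near the gene in an active library and 1 (VIM) did in each inactive library, while KRT18, NEFL and NEFM carried none. Of 22 markers of other cell types, 2 to 5 did so with active SCP1 and 0 to 1 with inactive SCP1. Among all 19974 protein-coding genes, 34.0%, 23.2% and 58.3% did so with active and 11.6%, 5.75% and 12.4% with inactive SCP1, against 25%, 37.5% and 50%, and 12.5% in each inactive library, of the HEK293 markers. These counts therefore do not set the markers apart.

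Isolated promoters carried a pThr4 peak in more members in each active library than in any inactive library. With active SCP1, 110 of the 5579 promoters had a peak in replicate 1, 45 in replicate 2 and 639 in replicate 3, or 1.97%, 0.807% and 11.5%. With inactive SCP1, 10, 2 and 13 promoters had one, or 0.179%, 0.0358% and 0.233%. The lowest active value exceeded the highest inactive value, and the spread among active replicates was itself wide.

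The ratio of the geometric means was 23-fold (log2 4.52), with an SD over libraries of 1.95 on the log2 scale in the active and 1.46 in the inactive group (n = 3 each). The two-sided exact permutation test gave p = 0.1, the smallest value that 3 against 3 libraries allow, so this design could not pass a threshold of 0.05. Without active replicate 3 the ratio was 11.0-fold, without active replicate 2 it was 41.5-fold and without inactive replicate 2 it was 12.9-fold. Within replicates 1 and 2, which share a run tag, it was 15.7-fold.

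Part of this ratio moved with the length of the lists. When each list was reduced to its 1163 strongest peaks by p-value, 14, 12 and 15 isolated promoters carried a peak after active SCP1 and 5, 2 and 5 after inactive SCP1, a ratio of 3.69-fold. With a common minimum of 6 in −log10 p, the counts were 19, 13 and 29 against 3, 2 and 4, a ratio of 6.68-fold. The groups did not overlap in either form, and the exact permutation p was 0.1 in both. With equal list lengths the 3 active replicates thus ran from 12 to 15 promoters, whereas as deposited they ran from 45 to 639.

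Isolated starts also took a larger part of each active list. Of all peaks in a list, 0.871%, 0.674% and 1.74% lay at an isolated promoter after active SCP1, and 0.406%, 0.172% and 0.482% after inactive SCP1. Of all protein-coding promoters with a peak, isolated ones made up 11.1%, 7.41% and 21.5% after active SCP1 and 3.50%, 1.85% and 3.99% after inactive SCP1. The groups did not overlap on either measure, but both measures also rose with the length of the list over the 6 libraries. In lists of equal length the log2 ratio of the isolated share to that of the other protein-coding promoters was −3.28, −3.30 and −3.49 with active SCP1. With inactive SCP1 it was −4.30, −4.74 and −4.39. As deposited it was −2.02, −2.66 and −0.885 with active and −3.80, −4.74 and −3.60 with inactive SCP1.

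Most isolated promoters were bare of peaks in every library. A peak in at least 1 active library was listed for 678 promoters (12.2%), where 18.7% of all 16633 promoters had one. At least 2 active libraries listed a peak at 83 isolated promoters (1.49%), against 5.73% of all promoters. All 3 active lists but no inactive list held a peak at 21 isolated promoters (0.376%), against 1.15% of all promoters. The opposite pattern was seen at none of the isolated and at none of the other promoters. At least 1 inactive library listed a peak at 19 isolated promoters (0.341%), against 2.38% of all. These 4 shares of isolated promoters lay below those of protein-coding promoters at large.

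Active replicate 3 supplied most of the members with a peak, and 556 of them had a peak in that library alone. These were 9.97% of isolated promoters, and 13.2% of the other protein-coding promoters held this pattern. Among the peaks of active replicate 3, the 83 members shared with another active library had a median −log10 p of 4.74 and a median width of 1021 bp. The 556 others had 3.69 and 733 bp. How far lists shared members varied. Of the 110 members of active replicate 1, 75 were in replicate 3 (68.2%, and 11.7% of replicate 3). Of the 45 members of active replicate 2, 33 were also found in replicate 1 (73.3% of the one and 30% of the other) and 41 in replicate 3 (91.1% and 6.42%). The 10 members of inactive replicate 1 were all among those of active replicates 1 and 3, of which they made up 9.09% and 1.56%, and of the 13 members of inactive replicate 3, 12 were in active replicate 1 and 12 in active replicate 3. Inactive replicates 1 and 3 shared 4 members, or 40% and 30.8% of theirs. HAPSTR1, with a peak in inactive replicate 3 alone, was the only isolated promoter listed with inactive but not with active SCP1 (named after its values were seen). This pattern was held by 0.0179% of isolated and 0.0181% of the other protein-coding promoters.

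The peaks gathered at the start and leaned into the gene. Among the 4053 isolated genes of at least 20 kb, long enough that their own ends lay outside the plotted span, cover by peaks, the percentage of genes that a peak overlay at a given distance, had a local maximum near the TSS with active SCP1. Within 1 kb of the TSS the highest 100-bp step began at +100 bp in active replicate 1, at 0 in replicate 2 and at +200 bp in replicate 3, where 0.989%, 0.464% and 5.63% of genes were covered. These values were 3.58, 2.76 and 4.85 times the mean cover from 10 to 2 kb upstream. In the inactive libraries the corresponding ratios were 1.39, 1.17 and 1.77. In active replicate 2 and in the inactive libraries a step near the far edge of the cleared stretch was higher than that at the start, with 0.526% at −9700 bp in active replicate 2.

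**Figure D1:**
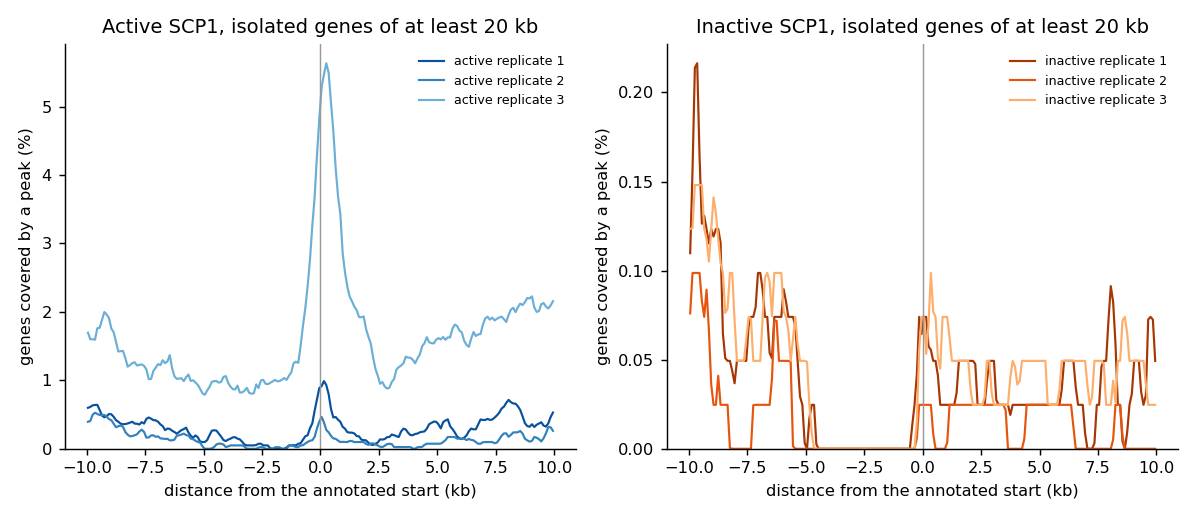
Share of isolated genes of at least 20 kb (n = 4053) covered by a pThr4 peak, in percent, against the distance from the annotated start in kb, in steps of 100 bp; each line is 1 library and the panels have different vertical scales. The active libraries reach 0.989%, 0.464% and 5.63% next to the start, where replicate 2 stays below its 0.526% at the far upstream edge, while the inactive libraries stay at or below 0.0987% within 1 kb of it.

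Between 4 and 1 kb upstream of these starts the inactive lists were empty. There, mean cover was 0.0616%, 0.0217% and 0.959% with active SCP1 and 0 in each of the 3 inactive libraries. Over the first 1 kb of the gene it was 0.628%, 0.217% and 4.57% after active SCP1 and 0.0475%, 0.0107% and 0.0691% after inactive SCP1. Farther out, from 10 to 7 kb upstream and so close to the limit of the cleared stretch, inactive cover was 0.0966%, 0.0361% and 0.0960%, above its value at the start in each library. The active values there were 0.455%, 0.324% and 1.46%, so that replicate 2 with active SCP1 also had less cover over the first 1 kb of the gene than at the upstream edge of the cleared stretch.

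Over all 5579 isolated promoters, cover from the TSS to +1 kb exceeded cover from −1 kb to the TSS in 6 of 6 libraries. The downstream and upstream values were 0.805% and 0.412%, 0.281% and 0.173%, and 4.95% and 2.91% in the active replicates. They were 0.0794% and 0.0232%, 0.0242% and 0.00402%, and 0.0975% and 0.0214% in the inactive replicates. The two-sided exact sign-flip permutation test over libraries gave p = 0.031 for a mean difference of 0.449 percentage points, the smallest p that 6 libraries allow. This test, here and below, took the 6 libraries as separate units. If matched portions of lysate made them 3 pairs, the smallest p of an exact sign-flip test would be 0.25. The direction held in each library under every alternative run for it, and the mean difference was 0.144 percentage points within replicates 1 and 2, 0.131 without active replicate 3, 0.0510 in lists of equal length and 0.0626 with the common p cutoff.

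The middle of the peaks lay at a median of +245, +102 and +255 bp in active replicates 1 to 3, and 72.7%, 71.1% and 67.9% of them lay downstream of the TSS. Most were short and stayed near the start. Median width was 651.5, 644 and 762 bp with active and 521, 955 and 400 bp with inactive SCP1, where inactive replicate 2 held 2 peaks only. Between 91.1% and 95.8% of active peaks at isolated promoters lay wholly from −2 to +3 kb, and 1, 0 and 3 of them reached the end of the gene.

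Against the other peaks of their lists, those at isolated promoters did not pass the tests for width or strength. The median width of all other peaks was 802, 835 and 802 bp with active SCP1 and 822, 803 and 785.5 bp with inactive SCP1, so peaks at isolated promoters were the shorter ones in 5 of 6 libraries, with a mean log2 ratio of −0.35 (exact sign-flip permutation p = 0.09375). Their median fold enrichment, a ratio over the background set by the peak caller, was 3.35, 3.50 and 3.06 with active and 3.67, 4.35 and 3.86 with inactive SCP1. The other peaks had medians of 3.39, 3.53 and 3.11, and of 3.85, 3.88 and 3.84. The mean log2 ratio of fold enrichment was 0.01 with an SD of 0.08 over 6 libraries (exact sign-flip permutation p = 0.96875), and its sign changed with the processing. The exact permutation p for the difference between groups was 0.7.

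The start was set against 2 windows of the same 2 kb width around the same genes, centred 6 kb upstream, in the stretch free of genes, and 4 kb inside the gene. The upstream window held a peak at 35, 22 and 192 genes in the active libraries, so the start had 3.14, 2.05 and 3.33 times as many. In the inactive libraries the upstream window held 9, 3 and 9, so the ratio was 1.11, 0.667 and 1.44. The start thus exceeded the gene-free window by 1.34, 0.412 and 8.01 percentage points with active SCP1, and the inactive differences lay between −0.0179 and 0.0717.

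The start was above the upstream window in 5 of 6 libraries (exact sign-flip permutation p = 0.09375). The active mean was 3.26 percentage points (SD 4.15, n = 3) and the inactive mean 0.0239 (SD 0.0451, n = 3), and the groups did not overlap (exact permutation p = 0.1, the smallest possible). With 20 kb upstream free of genes, the start was higher in 6 of 6 libraries and the exact sign-flip permutation p was 0.031. Within replicates 1 and 2 the mean difference over 4 libraries was 0.439 percentage points. The difference between group means, 3.23 percentage points, was 0.854 without active replicate 3, 0.161 in lists of equal length and 0.233 with the common p cutoff.

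**Figure D2:**
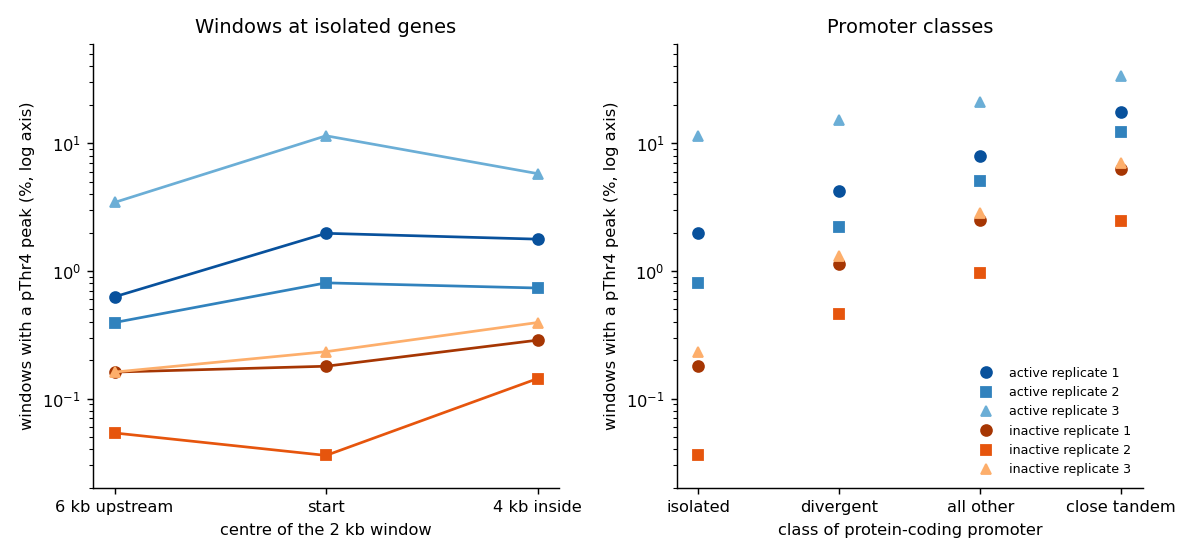
Left, share of the 5579 isolated genes with a pThr4 peak (percent, log axis) in 2 kb windows centred 6 kb upstream, at the start and 4 kb inside the gene; right, share of promoters with a peak in each class of protein-coding promoter. Each symbol is 1 library; active libraries lie above the inactive ones in the left panel, and in the right panel the isolated class has the lowest share in each library, from 0.0358% to 11.5%.

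In the deposited lists the start and the inside of the gene stood in a different order in the groups, an order that other settings did not keep. The inner window held a peak at 99, 41 and 323 genes with active SCP1, fewer than the start in each library, and at 16, 8 and 22 genes with inactive SCP1, more than the start in each library. The start exceeded the inner window by 0.197, 0.0717 and 5.66 percentage points with active SCP1, whereas the inactive differences were −0.108, −0.108 and −0.161. The mean over 6 libraries was 0.926 (exact sign-flip permutation p = 0.6875), and the difference between groups was 2.10 (exact permutation p = 0.1). With lists of equal length the inner window held 17, 14 and 20 active peaks against 14, 12 and 15 at the start, so the active direction turned, and without active replicate 3 the mean over libraries was −0.0215. With the common p cutoff the inner window held 20, 14 and 29 active peaks against 19, 13 and 29 at the start. The inactive order was not kept either. By peak centre the start and the inner window held 8 and 7, 2 and 2, and 10 and 10 peaks in the inactive libraries. Without the 518 members that face the end of an opposite-strand gene they held 6 and 4, 1 and 2, and 8 and 6.

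Compared with other promoters, isolated ones carried fewer peaks. The 11054 other protein-coding promoters had a peak in 8.0%, 5.08% and 21.2% with active and in 2.5%, 0.959% and 2.83% with inactive SCP1. The log2 ratio of the isolated to the other share was below 0 in 6 of 6 libraries (exact sign-flip permutation p = 0.031, the smallest possible), with a mean of −1.85 (SD 0.90, n = 3) in the active and −4.05 (SD 0.61, n = 3) in the inactive group. The deficit was thus larger with inactive SCP1, by 2.19 on the log2 scale, with groups that did not overlap (exact permutation p = 0.1). In lists of equal length the difference between groups was 1.12, in the same direction.

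Divergent promoters, whose start lies within 1 kb of the start of an opposite-strand protein-coding gene that points away, were the class most like the isolated ones. The 1752 of them had a peak in 4.22%, 2.23% and 15.4% with active and in 1.14%, 0.457% and 1.31% with inactive SCP1. The isolated share was lower than theirs in 6 of 6 libraries, and the log2 ratio averaged −1.97 (exact sign-flip permutation p = 0.031). In the 3865 close tandem promoters, which have a same-strand gene close upstream, the shares were 17.5%, 12.3% and 33.5% with active and 6.29%, 2.46% and 7.04% with inactive SCP1. The order isolated, divergent, tandem was the same in each library.

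The distance to the nearest upstream gene went with the share of promoters with a peak, over a wider range when that gene lay on the same strand, so that its end pointed at the start. With a same-strand gene within 1 kb, 36.2%, 28.7% and 53.2% of protein-coding promoters had a peak after active SCP1, and 16.5%, 7.24% and 17.8% after inactive SCP1. Just outside the rule, at 8 to 10 kb, the shares were 4.98%, 1.99% and 17.9%, and 0.997%, 0.664% and 1.33%. Just inside it, at 10 to 12 kb, they were 4.01%, 2.19% and 18.2% after active SCP1, and 0.730%, 0 and 0.730% after inactive SCP1. With the neighbour 50 to 100 kb upstream, active shares were 0.264%, 0.528% and 10.8%, and no inactive library listed a peak. With an opposite-strand neighbour the shares were lower from the outset, 4.85%, 2.73% and 16.5% with active and 1.26%, 0.467% and 1.47% with inactive SCP1 at 0 to 1 kb. They too were lower farther out, with 0.938%, 0.312% and 5.31% in the active libraries at 50 to 100 kb. Beyond 100 kb, same-strand shares were 1.06%, 0 and 7.41% with active and 0, 0 and 0.529% with inactive SCP1, so the trend was not even at its far end. The rule of 10 kb thus removed the steep part of the same-strand trend, and a lower part of it ran on among the members.

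**Figure D3:**
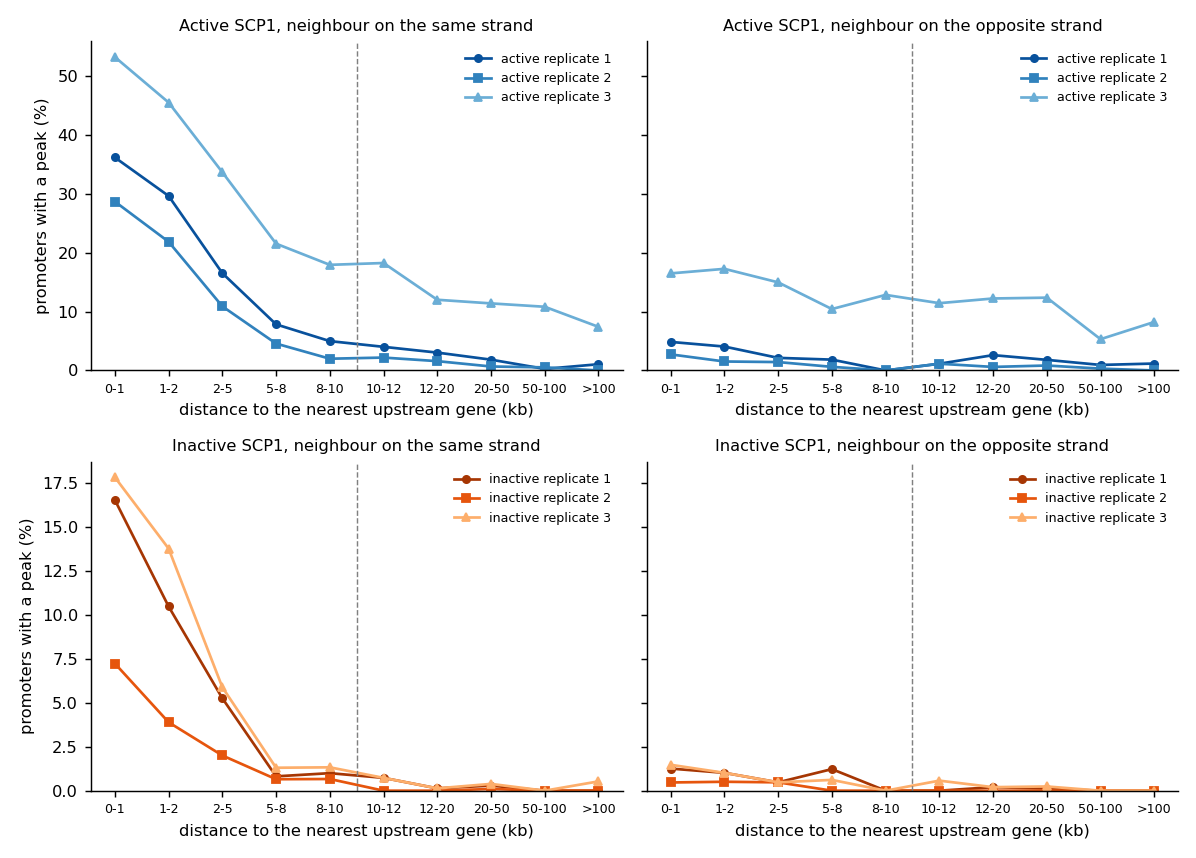
Share of protein-coding promoters with a pThr4 peak, in percent, by the distance to the nearest upstream gene in kb, for neighbours on the same strand (left) and on the opposite strand (right), with active libraries above and inactive libraries below. Lines are single libraries and the dashed line marks the 10 kb of the rule; at 0 to 1 kb the same-strand shares reach 53.2% and 17.8%, and the opposite-strand shares reach 16.5% and 1.47%.

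Among the members themselves, 3146 had their nearest upstream gene on the same strand and 2431 on the opposite strand. Their shares were 2.03% and 1.89%, 0.922% and 0.658%, and 11.7% and 11.1% in active replicates 1 to 3, and no higher than 0.254% in either class with inactive SCP1. The same-strand class was higher in 5 of 6 libraries by a mean of 0.182 percentage points (exact sign-flip permutation p = 0.0625). With lists of equal length the same-strand class was the lower one in 6 of 6 libraries, with a mean of −0.0838 (exact sign-flip permutation p = 0.031), and with a common p cutoff the mean was −0.0424. The deposited lists therefore gave no stable order of these classes.

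The rule did not clear the ends of opposite-strand genes that run towards the start from inside it. Such an end lay 2 to 12 kb downstream of the start at 518 members (9.28%), a class formed after the values were seen. These members had a peak in 3.86%, 1.93% and 14.9% with active and in 0.772%, 0.193% and 0.965% with inactive SCP1. The 5061 members without such an end had one in 1.78%, 0.692% and 11.1%, and in 0.119%, 0.0198% and 0.158%. In genes of at least 20 kb the active order was not kept in every library. Active shares there were 1.32%, 1.32% and 7.89% with an end at 2 to 5 kb (n = 76). They were 1.79%, 1.19% and 10.1% at 5 to 12 kb (n = 168), and 1.65%, 0.604% and 10.9% without one (n = 3809). Inactive shares in the same order were 1.32%, 0 and 1.32%, then 0.595%, 0.595% and 1.19%, then 0.0788%, 0 and 0.131%. All 3 active libraries listed a peak at 33 members (0.592%, against 4.38% of the other protein-coding promoters), and 10 of these had such an end. Among the 19 members with a peak in an inactive library, 6 did. Without these 518 members the ratio of active to inactive shares was 33.3-fold, and the part that neighbouring ends play in single peaks was not tested.

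Promoters of shorter genes carried peaks more often in the 3 active libraries. From members of 5 to 20 kb (n = 1526) over 20 to 50 kb (n = 1458) and 50 to 100 kb (n = 1053) to those over 100 kb (n = 1542), the shares were 2.82%, 1.92%, 1.71% and 1.36% in active replicate 1. They were 1.25%, 1.10%, 0.760% and 0.13% in replicate 2, and 13.0%, 11.5%, 10.7% and 10.3% in replicate 3. Members were longer than the other genes, with a median of 44.5 kb against 28.9 kb. By chromosome, active replicate 1 had a peak at 8.25% of the 97 members on chromosome 22 and at 0.348% of the 287 on chromosome 4. The 149 members whose symbol starts with ZNF, the zinc finger genes, had shares of 8.05%, 3.36% and 20.1% with active and 1.34%, 0 and 0.671% with inactive SCP1. Gene length, chromosome and the ZNF group were looked at after the lists had been seen and were not tested.

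Where a RefSeq start lay over 3 kb inside the annotated gene, which was so for 915 members, the inner start carried a peak more often than the outer one in the active libraries. The inner shares were 2.84%, 1.09% and 15.4%, and the outer ones 1.42%, 0.328% and 9.51%. With inactive SCP1 neither start passed 0.219%. The annotated outermost start was thus not the only RefSeq start of these genes with peaks nearby, and the shares given for isolated promoters refer to the outermost start. The rule did not clear other genes from around the inner starts. Whether the peaks there belong to other genes was not tested.

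At the far end of the same genes peaks were more frequent in every library. Among the 3675 members with no other gene within 3 kb past their end, 61, 25 and 394 had a peak at the start and 452, 316 and 722 had one within 2 kb past the end in the active libraries. In the inactive libraries 5, 1 and 9 had one at the start and 158, 67 and 161 past the end. Even the inactive lists thus held ends of 67 genes or more, and starts of 9 or fewer.

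The share of starts relative to ends was 0.135, 0.0791 and 0.546 with active and 0.0316, 0.0149 and 0.0559 with inactive SCP1. On the log2 scale the active mean was −2.47 (SD 1.44, n = 3) and the inactive mean −5.07 (SD 0.96, n = 3), which lie 2.60 apart, and the groups did not overlap (exact permutation p = 0.1, the smallest possible). That difference was 2.25 within replicates 1 and 2, and 1.79 without active replicate 3. In lists of equal length starts with a peak numbered 4, 7 and 9 against 3, 1 and 4, so that the groups then differed by 1.27 with a higher exact permutation p of 0.2. The difference was 0.956 with the common p cutoff and 1.07 with a q cutoff of 2 in −log10, and the exact permutation p was again 0.2. Of the members with a peak at the start, 23%, 24.0% and 32.0% also had one past the end in the active libraries.

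**Figure D4:**
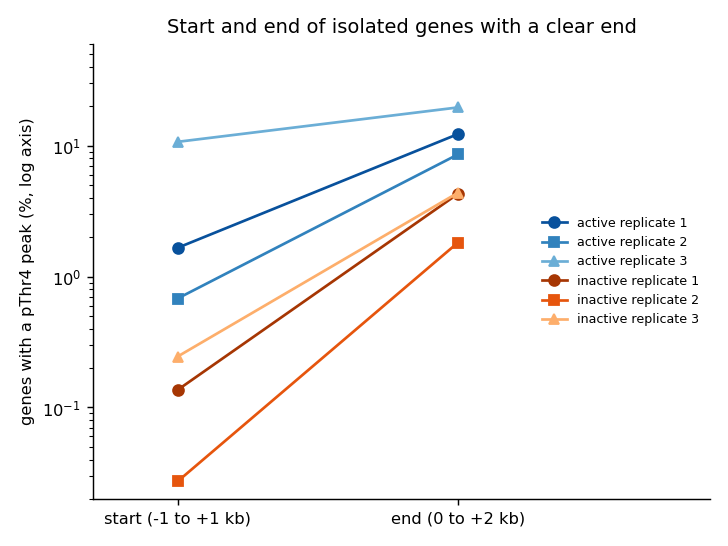
Share of the 3675 isolated genes with a clear end that had a pThr4 peak at the start (−1 to +1 kb) and past the end (0 to +2 kb), in percent on a log axis, with 1 line per library. The end lies above the start in 6 of 6 libraries, and the active shares at the start, 0.680% to 10.7%, lie above the inactive ones, 0.0272% to 0.245%.

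The genes named next were chosen by fixed measures of the peaks in the lists, so their values describe them and test nothing. Peaks in all 6 libraries, seen at 0.571% of all protein-coding promoters, were listed at 2 isolated ones. COX20, an assembly factor of cytochrome c oxidase (GRCh38 chromosome 1, start at 244835306, plus strand), had fold enrichments of 7.56, 5.44 and 8.36 with active and 5.22, 4.45 and 6.24 with inactive SCP1. Its peaks began 542, 441 and 498 bp upstream of the TSS in the active libraries and ran up to 5288 bp into the gene. The end of HNRNPU, an opposite-strand gene, lay 14.991 kb away from this start.

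IL17RA, which encodes a receptor subunit for interleukin 17 (chromosome 22, start at 17085000, plus strand), was the other. Its fold enrichments were 4.67, 4.46 and 5.51 with active and 4.58, 4.25 and 4.12 with inactive SCP1. All 6 peaks lay over the TSS, 601, 658 and 595 bp wide in the inactive libraries and 1645, 861 and 2984 bp wide in the active ones. The end of RPL31P62, an opposite-strand gene, lay 8.615 kb downstream of the start of IL17RA, and its part was not tested. At both COX20 and IL17RA the pThr4 peak was thus listed also with inactive SCP1.

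Of the 21 promoters found in each active list and absent from each inactive list, the 10 with the highest lowest fold enrichment encode proteins of varied kinds. Several of them had a short peak over the TSS and no opposite-strand end nearby. At TIGAR, a phosphatase that lowers glycolytic flux and is induced by p53, the peaks ran from −233 to +278 bp, from −216 to +144 bp and from −96 to +205 bp in active replicates 1 to 3, with fold enrichments of 3.39, 4.63 and 3.43. At CELF6, an RNA-binding splicing regulator, the peaks were 785, 426 and 680 bp wide and had fold enrichments of 3.89, 3.30 and 3.81. At SLC37A2, a sugar phosphate transporter of the endoplasmic reticulum (chromosome 11, start at 125063305, plus strand), they were 539, 634 and 725 bp wide with fold enrichments of 3.34, 3.53 and 4.91. These 3 genes are 27212 to 38816 bp long, so the peaks took up only the first stretch of each. Their nearest upstream genes lay on the same strand, CCND2 at 15.86 kb, HEXA at 20.767 kb and CCDC15 at 21.816 kb. The part of these neighbours was not tested.

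SNX14, a sorting nexin, had peaks of 835, 679 and 2408 bp over its TSS and fold enrichments of 3.41, 4.01 and 4.42. Its nearest upstream gene, SYNCRIP, lay 13.926 kb away on the same strand. XYLT2, a xylosyltransferase that begins glycosaminoglycan chains (chromosome 17, start at 50346126, plus strand), had peaks that began 51 and 17 bp downstream of the TSS in replicates 1 and 2 and 344 bp upstream of it in replicate 3, with fold enrichments of 3.50, 3.45 and 3.39. ZDHHC11B, a member of the palmitoyltransferase family (chromosome 5, start at 784729, minus strand), had fold enrichments of 3.65, 3.84 and 3.33. Its neighbour ZDHHC11, 10.876 kb upstream, is a close copy, so that reads could be shared between them and the call at ZDHHC11B is uncertain.

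At 4 of the 10 an opposite-strand gene ended within 12 kb. DMAP1, a subunit of the TIP60 chromatin complex, had peaks of 613, 377 and 1693 bp over the TSS with fold enrichments of 4.02, 4.28 and 3.65, and the end of ERI3 lay 7.599 kb downstream. The peaks of DLK2, a Notch ligand homologue (chromosome 6, start at 43456632, minus strand), lay inside the gene, from +654, +914 and +104 bp on, with fold enrichments of 4.23, 4.13 and 5.62, and the end of ABCC10 lay 4.638 kb away. HNRNPAB, an RNA-binding protein of the hnRNP family (chromosome 5, start at 178204533, plus strand), had peaks of 13718, 3139 and 15914 bp with fold enrichments of 6.96, 4.01 and 6.87. In replicates 1 and 3 they ran past the end of this 6631 bp gene, and PHYKPL ended 2.611 kb downstream of the start. FICD, an enzyme that AMPylates the chaperone BiP (chromosome 12, start at 108515277, plus strand), had peaks of 4649, 3723 and 6420 bp and fold enrichments of 3.83, 3.35 and 3.83, with the end of SART3 6.937 kb away. Signal from the gene itself and from the facing end cannot be told apart in the wide peaks of HNRNPAB and FICD. For the shorter peaks of DMAP1 and DLK2 the part of the facing end was not tested.

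Of the 33 promoters with a peak in all 3 active libraries, 23 had peaks that kept wholly within −2 to +3 kb. The 5 with the highest lowest fold enrichment were ZFAND1, DLK2, MPHOSPH8, DMAP1 and AQP11. ZFAND1, a zinc finger protein tied to the clearance of stress granules, had peaks of 507, 281 and 549 bp with fold enrichments of 4.75, 4.16 and 5.41, and one of 3.73 in inactive replicate 3. MPHOSPH8, a subunit of the HUSH silencing complex, had peaks of 692, 357 and 827 bp over its TSS with fold enrichments of 4.42, 3.79 and 4.14, and one of 3.92 in inactive replicate 1. AQP11, an aquaporin (chromosome 11, start at 77589953, plus strand), had peaks that reached from 484, 479 and 1138 bp upstream to 181, 212 and 370 bp downstream of the TSS, with fold enrichments of 4.05, 3.61 and 4.65, and one of 4.08 in inactive replicate 1. AQP11 was thus a case in which the greater part of the peak lay upstream.

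The widest of the narrowest active peaks belonged to SNAP47, FICD and HNRNPAB. SNAP47, a SNARE protein (chromosome 1, start at 227728168, plus strand), had peaks of 6062, 4822 and 6285 bp with active SCP1 and of 3800 and 3709 bp in inactive replicates 1 and 3, with the end of JMJD4 3.023 kb downstream of its start. These 3 genes, ranked by their narrowest active peak, thus each had a facing end within 12 kb.

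**Figure D5:**
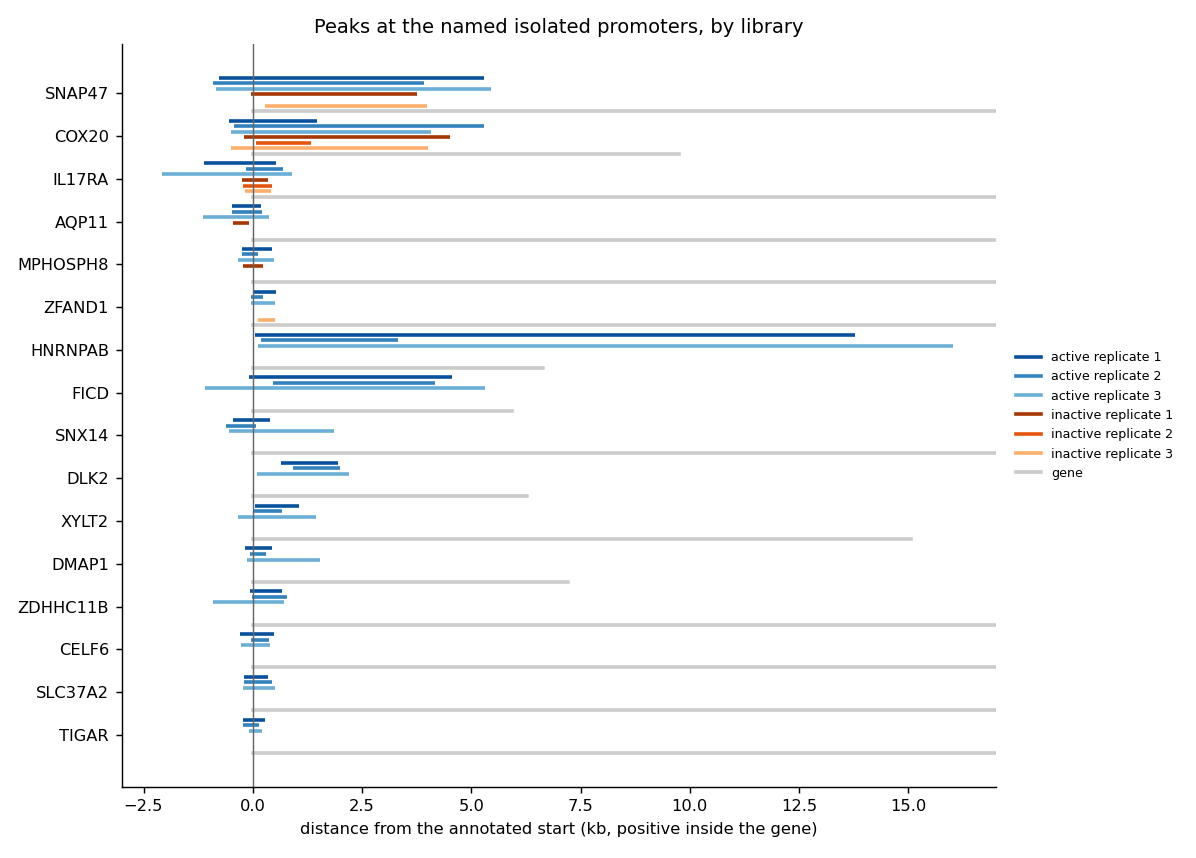
Extent of the pThr4 peak at each named isolated promoter, in kb from the annotated start and positive inside the gene; each coloured bar is the peak of 1 library and the grey bar is the gene, drawn up to 17 kb. Most peaks lie close to the start, as at TIGAR (302 to 512 bp wide), whereas those of HNRNPAB reach up to 16025 bp into and past the gene.

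Gene lists of pathways were counted among the isolated promoters as well, and no member of any list had a peak in 2 or more active libraries. In the list of pausing and elongation factors 1 of 8 isolated members (NELFCD, a subunit of the pausing factor NELF) had a peak in 1 active library, and in that of chromatin regulators 1 of 17 (CREBBP, a histone acetyltransferase). The counts were 3 of 11 for developmental transcription factors (SIX4, TCF7L1 and TBX1), 2 of 7 for immediate early genes (EGR2 and FOSB), and 4 of 16 for cell cycle genes (WEE1, CDT1, CCNE1 and E2F1). They were 3 of 20 for signalling kinases, 3 of 19 for ubiquitin ligases and deubiquitinases, 3 of 22 for RNA-binding and miRNA pathway proteins and 3 of 28 for neuronal synapse and adhesion genes. The share over all members was 12.2%. Except at TBX1 and CNTNAP2, which had theirs in active replicate 1, these peaks came from active replicate 3.

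CDT1, a factor that licenses replication origins, held the strongest of these. In active replicate 3 its peak was 14801 bp wide with a fold enrichment of 6.96, began 861 bp inside the gene and ran past the end of this 5470 bp gene (named after its values were seen). It was in no other library's list at this start, and 3 members in all had a peak in that library that reached the gene end.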

How the data were processed

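Peak lists of 6 pThr4 ChIP-seq libraries (3 with active and 3 with inactive SCP1) were analysed. The submitters' processing notes name cutadapt 4.6, Bowtie2 2.5.2, FastQC and hg38, and the caller's version, cutoff and control are not given in the sources used here. A nonspecific antibody (IgG) library was not analysed here. The authors deposited 1 broad-peak list per library, without pooling, whose columns give a fold enrichment (a ratio over background), a −log10 p-value and a −log10 q-value, and the deposited score was not used. No read counts were at hand, so depth is unknown.

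Gene positions came from the RefSeq table of GRCh38, with strand from RefSeq promoter entries (4449 members) or, by symbol and chromosome, from GENCODE release 44 (1130 members). The sources differed for 63 of 15260 genes, and RefSeq was then used. Genes on chromosomes 1 to 22 and X were read. A window held a peak when they overlapped by at least 1 bp. Groups were compared by exact permutation of library labels, and measures taken within a library by exact sign flips, all two-sided. The code was tested on simulated data. Python 3.11.15, numpy 2.4.6 and pandas 2.3.3 were used.

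Named promoters were: the 10 with the highest lowest fold enrichment over the active lists among those in all 3 active and no inactive lists, those in all 6 lists, the 5 best in all 3 active lists with peaks wholly from −2 to +3 kb, and the 3 with the widest narrowest peak. The members, gene lists and tests were chosen with earlier results of these data known. A comparison of CpG-rich with CpG-poor starts was void, because 68.2% of members had a promoter sequence at the gene start, below the 80% required.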

Additional observations from a re-analysis of the deposited data

Results flagged for a closer look

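Isolated promoters set against the window inside the gene differed in direction between the groups. The start exceeded the inner window in each of the 3 active libraries and fell below it in each of the 3 inactive libraries. The group means were 1.98 and −0.125 percentage points, 2.10 apart (exact permutation p = 0.1, the smallest possible). In lists of equal length the inner window held more peaks than the start in the active libraries too. By peak centre no inactive library fell below (8 against 7, 2 against 2 and 10 against 10 peaks), and without members that face the end of an opposite-strand gene 1 of the 3 did (6 against 4, 1 against 2 and 8 against 6).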

How the results depend on the processing

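Of the 219 combinations of a result with an alternative, 182 kept the direction and the side of the threshold, 21 lost a call, 3 gained one and 13 turned in sign. The group comparisons, by exact permutation of at most 3 against 3 libraries, have a smallest p of 0.1. Their side of the threshold was therefore fixed, and only their direction could turn. The ratio of active to inactive shares and the ratio of start to end kept their direction in each combination run. Adding the replicate number as a replicate block left both at 4.52 and 2.60 on the log2 scale, with an exact sign-flip permutation p of 0.25, the smallest that 3 pairs allow. Over isolated promoters with a peak, deviations of same-numbered libraries from their group means correlated at 0.0508, −0.113 and −0.143, and the labels do not say that a number marks a shared lysate.

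Isolated starts against the gene-free window upstream passed the threshold with the common p cutoff (0.152 percentage points), with a q cutoff of 2 in −log10 (0.329) and with 20 kb free of genes (1.80), and not as deposited. Within replicates 1 and 2 no call could be made for lack of libraries, and the values were −3.30 against the other promoters, −2.23 against divergent promoters and 0.144 percentage points for downstream minus upstream cover. The 5 libraries left when 1 was left out cannot pass either, and these values ran from −3.36 to −2.59, from −2.28 to −1.63 and from 0.131 to 0.534.

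Against the window inside the gene the mean turned to −0.0807 with equal peak number and to −0.0508 with the common p cutoff, and ran from −0.0215 to 1.14 when 1 library was left out, lowest without active replicate 3. The same 2 settings turned the order by neighbour strand, to −0.0838 and −0.0424. With 20 kb free of genes, a setting not counted for this order, the active differences were −0.386, −0.160 and −0.170 percentage points. The inactive ones were 0.0298, −0.0109 and 0.0705. With 5 kb free of genes the difference was positive in each library. The log2 ratio of fold enrichment stayed near 0 and turned with equal peak number (−0.0093), the common p cutoff (−0.0027), the stricter q (−0.0074), peak centres (−0.0048) and strand from RefSeq only (−0.0015), and ran from −0.0238 to 0.0226 when 1 library was left out. Its difference between groups was 0.0188 with the stricter q and ran from −0.103 to 0.0129 when 1 library was left out. The causes were not tested.

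Strand from RefSeq only, members without a facing end, and differences in percentage points were chosen after seeing the data. Not run were 5 kb of clearance against the upstream window, which would then hold genes, and the void CpG comparison. Settings of 20 or 5 kb of clearance and of TSS ±500 bp were not counted for some results. These were the inner window, divergent promoters, cover, width and neighbour strand. An overlap of at least 200 bp was not counted for cover, width and fold enrichment. Depth is unknown, and the list lengths limit each count.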
